A study of Mus musculus with 31 samples.

Results

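The growth hormone and leptin receptor axis of the liver was followed through 10 genes, out of 22180 measured: the receptor genes Ghr and Lepr, the transcription factor genes Stat5b, Bcl6 and Onecut1, the secreted products Igf1 and Igfals, and the feedback inhibitors Socs2, Socs3 and Cish. Each was found by its symbol in the array's annotation, and all 10 were measured. Socs2, Socs3 and Cish each had 2 probe sets, of which the one with the higher mean over all arrays was used.

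The livers came from 31 male C57BL/6 mice aged 3 to 4 months, taken in the morning, 1 array per mouse. Fed mice with 0 earlier fasts (labelled Fed-Fed-Fed, n = 8) had been fed ad libitum throughout, and fasted mice with 0 earlier fasts (Fed-Fed-Fast, n = 8) were killed at the end of their first fast of 16 h. Mice with 2 earlier fasts had gone through 2 fasts of 16 h within 8 weeks, with recovery after each, and were then killed fed (Fast-Fast-Fed, n = 8) or after a further fast of 16 h (Fast-Fast-Fast, n = 7). The labels give no genetic change and no agent in any group. The tissue was whole liver with all its cell types, so fewer cells of a type and less RNA per cell cannot be told apart.

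Growth hormone binds its receptor on hepatocytes and activates the kinase JAK2, which phosphorylates the transcription factor STAT5B. STAT5B induces Igf1, the main circulating growth factor made by the liver, Igfals, which keeps IGF-1 in a stable complex in blood, and Socs2 and Cish, whose products shut the receptor off again. In male rodents growth hormone is secreted in pulses, and liver STAT5B signalling follows each pulse. The leptin receptor, which signals through the same kinase family, exists in long, short and secreted forms. An array probe set covers the gene and was not resolved into these forms.

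Values are RMA log2 signals, on which a step of 1 is a doubling of signal. They compare mice for 1 gene and do not rank genes against each other. Differences were tested with limma, with Benjamini-Hochberg adjustment over all genes and a threshold of adjusted p = 0.05. Of the hepatocyte markers checked, 9 of 10 were measured, and their mean level lay between 11.3 and 11.45 on every array, while the mean levels of exocrine pancreas and skeletal muscle markers stayed between 1.56 and 2.15. Of 12 Kupffer cell markers 6 were lower after the first fast and 3 after the further fast, with mean levels of 5.34 to 6.51 fed and 4.95 to 6.00 fasted in mice with 0 earlier fasts. Of 12 stellate cell markers 3 and 4 were lower. The part of both in the results below was not tested. Fasted mouse 5 with 0 earlier fasts and fasted mouse 4 with 2 earlier fasts had the lowest mean correlation with the other arrays (0.983 and 0.985, against 0.985 to 0.988 for the rest). They also carried the highest Lepr signals of the study, and the Lepr and Socs2 responses, the wide spreads and the called relations are also given without them. The second of them, at 0.98505, was close to the next array, fed mouse 5 with 2 earlier fasts (0.98546). Below, the arrays that stood apart are these 2, and no fault of the arrays is meant. The mean of 7 adipocyte markers was 2.01 to 2.32 in the 16 fed mice, 2.34 to 2.62 in 14 fasted mice and 4.19 in fasted mouse 4 with 0 earlier fasts. Of the 7 markers Plin4, a lipid droplet gene, was called in both responses (log2 change 1.85 and 1.81) and the other 6 in neither, while the group means of Adipoq and Lep stayed between 1.11 and 1.60. The part of these markers in the Lepr result was not tested beyond leaving out that mouse.

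Fasting moved the 2 receptors in opposite directions. Lepr rose and Ghr fell in mice with 0 earlier fasts and again in mice with 2 earlier fasts, and in both genes every fasted mouse lay outside the range of every fed mouse. In all, 4 of the 10 members were called after the first fast (1 higher, 3 lower), where 12.5% of all genes were called, 6.25% higher and 6.23% lower. After the further fast 3 of 10 were called (1 higher, 2 lower), against 11.6% of all genes, 6.06% higher and 5.52% lower. Groups did not overlap for 2 of 10 members in each response, against 4.28% of all genes after the first fast and 4.37% after the further one. The median log2 change of the members was -0.27 and -0.34, beside 0.00 for all genes in both.

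**Figure D1:**
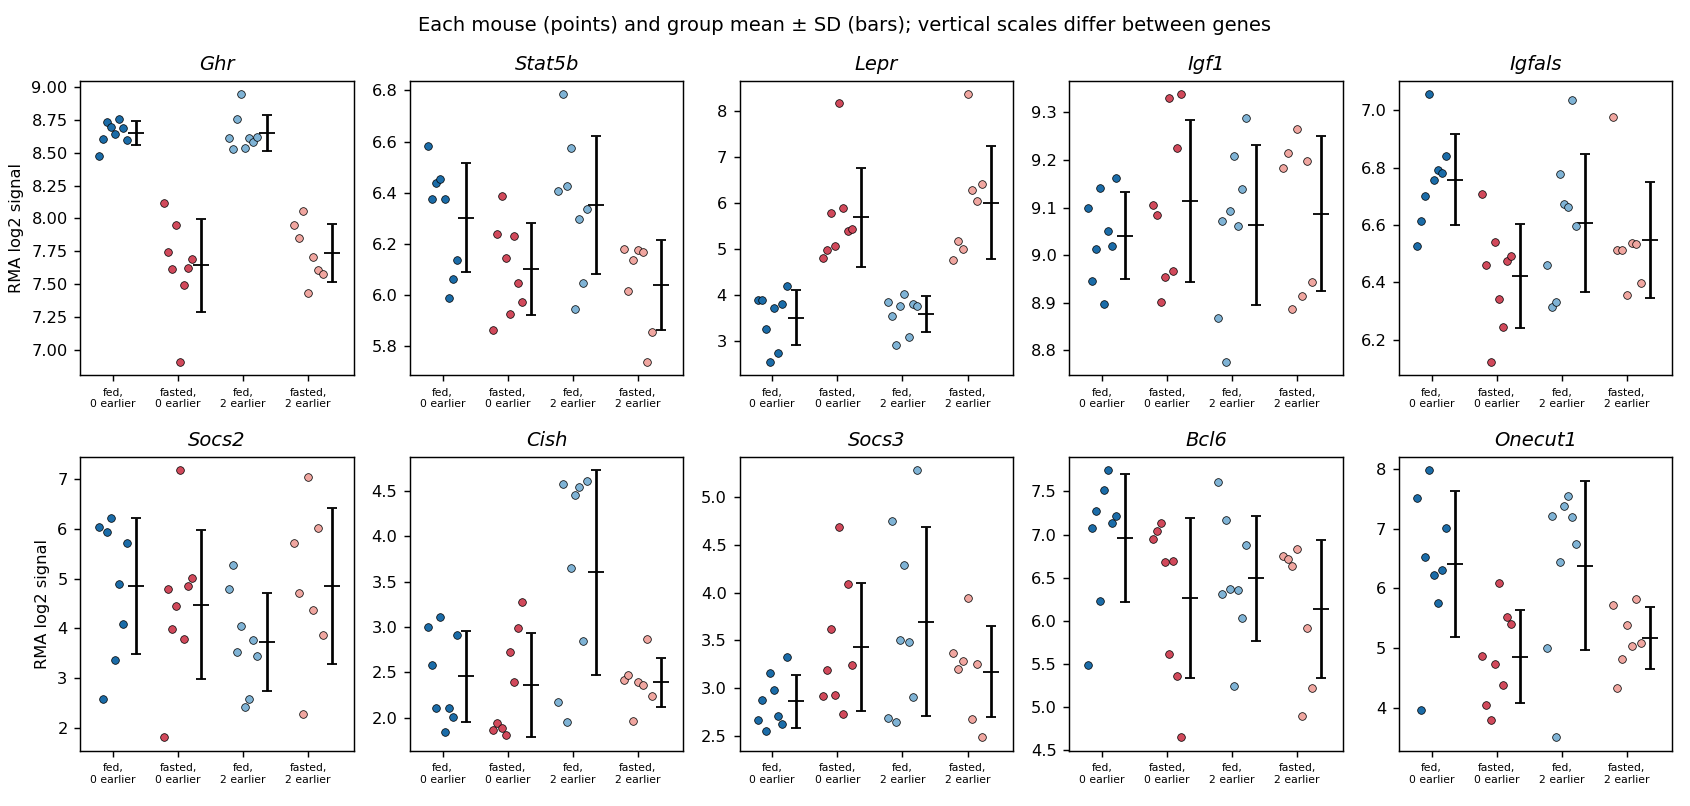
RMA log2 signal of each of the 10 genes in each mouse (points), with the group mean and SD (bars), by final state and number of earlier fasts; vertical scales differ between genes. All 15 fasted mice lie above all 16 fed mice for Lepr and below them for Ghr, while Socs2, Bcl6 and Onecut1 spread over several log2 units inside a group.

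Ghr encodes the growth hormone receptor. Its signal in fed mice with 0 earlier fasts ran from 8.48 to 8.75 (median 8.67), and in fasted mice with 0 earlier fasts from 6.91 to 8.12 (median 7.65). In mice with 2 earlier fasts it ran from 8.53 to 8.95 (median 8.61) when fed and from 7.43 to 8.05 (median 7.70) when fasted. Every fasted mouse was below the lowest fed mouse, and the lowest value belonged to fasted mouse 5 with 0 earlier fasts. The mean went from 8.65 ± 0.09 to 7.64 ± 0.36 (SD, n = 8 and 8), 2.01-fold lower (log2 change -1.01, SE 0.11, adjusted p = 1.38e-08, limma). After the further fast it went from 8.65 ± 0.14 to 7.74 ± 0.22 (SD, n = 8 and 7), 1.88-fold lower (log2 change -0.91, SE 0.11, adjusted p = 2.66e-07, limma). The 2 fed groups had nearly the same mean, with a difference of 0.00 and a 95% interval of -0.22 to 0.22. In the order of group means the step from the fasted to the fed groups passed the test (0.91 from fasted with 2 to fed with 0 earlier fasts, adjusted p = 2.5e-07, limma), and neither step within a state did. The spread between mice was wider after fasting, with a pooled SD of 0.30 in fasted (0.21 without the 2 arrays that stood apart) and 0.12 in fed mice.

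Lepr encodes the leptin receptor, which passes the signal of the adipose hormone leptin and, in its secreted form, binds leptin in plasma. In mice with 0 earlier fasts its signal ran from 2.54 to 4.19 (median 3.75) fed and from 4.79 to 8.17 (median 5.41) fasted. In mice with 2 earlier fasts it ran from 2.90 to 4.00 (median 3.75) fed and from 4.76 to 8.37 (median 6.05) fasted. The lowest fasted mouse was above the highest fed one in both. The mean rose from 3.50 ± 0.59 to 5.69 ± 1.07 (SD, n = 8 and 8), 4.56-fold (log2 change 2.19, SE 0.40, adjusted p = 0.000122, limma), and from 3.58 ± 0.39 to 6.01 ± 1.23 (SD, n = 8 and 7), 5.36-fold (log2 change 2.42, SE 0.41, adjusted p = 5.72e-05, limma). The 2 values above 8 belonged to the 2 mice named above, and without both arrays the rises were 1.83 (adjusted p = 2.09e-06, limma) and 2.03 (adjusted p = 8.28e-07, limma). Lepr remained called with any single array left out, the mouse with high adipocyte markers included (adjusted p up to 0.000459). Leprot, whose product acts on surface levels of both receptors, had log2 changes of -0.04 (adjusted p = 0.857, limma) and -0.17 (adjusted p = 0.316, limma).

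Stat5b encodes the transcription factor that carries the growth hormone signal to liver genes. Its means were 6.30 ± 0.21 fed and 6.10 ± 0.18 fasted with 0 earlier fasts (SD, n = 8 and 8), and 6.35 ± 0.27 fed and 6.04 ± 0.18 fasted with 2 (SD, n = 8 and 7). All 4 groups overlapped, between 5.74 and 6.78. The log2 changes were -0.20 (SE 0.10, adjusted p = 0.273, limma) and -0.31 (SE 0.11, adjusted p = 0.0566, limma). The second passed the threshold in 5 of 11 other settings, where adjusted p ran down to 0.0224, and without fed mouse 5 (adjusted p = 0.0168) or fed mouse 7 (0.029) with 2 earlier fasts. No neighbouring pair in the order of the 4 means passed the test.

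**Figure D2:**
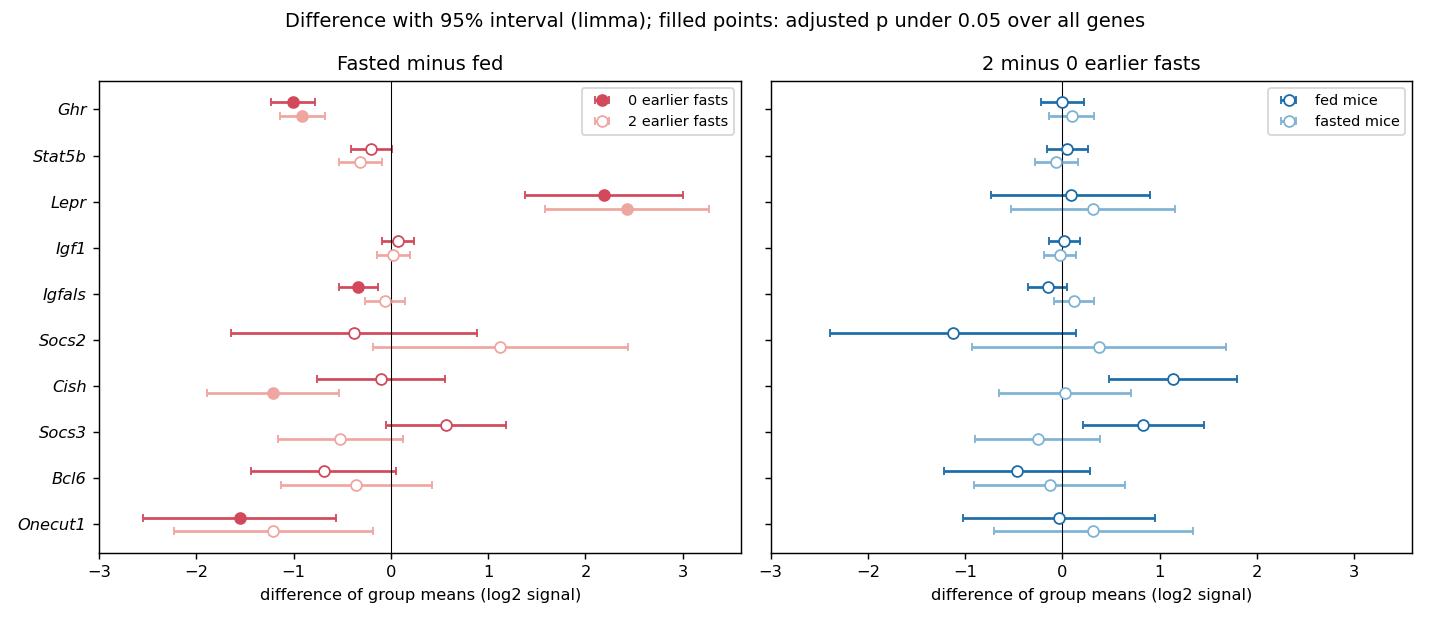
Differences of group means with 95% intervals for the 10 genes (horizontal axis, log2 signal), fasted minus fed on the left and 2 minus 0 earlier fasts on the right; filled points passed an adjusted p of 0.05 over all genes. Ghr and Lepr are filled in both responses, Igfals and Onecut1 with 0 earlier fasts, Cish with 2, and no point is filled on the right.

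Among the secreted products, Igf1 showed no called difference and Igfals a small fall. Igf1 ran from 8.90 to 9.16 (median 9.04) in fed and from 8.90 to 9.34 (median 9.10) in fasted mice with 0 earlier fasts. With 2 earlier fasts it ran from 8.78 to 9.29 (median 9.08) fed and from 8.89 to 9.27 (median 9.18) fasted. The ranges of the 4 groups overlapped, and that of fed mice with 0 earlier fasts was the narrowest. The log2 change was 0.07 after the first fast (95% interval -0.09 to 0.23, adjusted p = 0.698, limma) and 0.02 after the further fast (-0.14 to 0.19, adjusted p = 0.926, limma). Igf1 had the narrowest range of the 10 genes, 0.56 log2 over all 31 arrays.

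Igfals encodes the acid-labile subunit, which joins IGF-1 and its binding protein in a ternary complex. It ran from 6.53 to 7.06 (median 6.77) in fed and from 6.12 to 6.71 (median 6.47) in fasted mice with 0 earlier fasts, so the groups overlapped. The fall was 1.26-fold (log2 change -0.34, SE 0.10, adjusted p = 0.0182, limma), and with any single array left out adjusted p went up to 0.05. With 2 earlier fasts it ran from 6.31 to 7.04 (median 6.63) fed and from 6.36 to 6.98 (median 6.51) fasted, a log2 change of -0.06 (95% interval -0.27 to 0.15, adjusted p = 0.824, limma). The difference between the 2 responses was 0.28 (95% interval -0.01 to 0.56) and was not called (adjusted p = 0.999, limma).

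STAT5 proteins bind the palindrome TTCNNNGAA, and BCL6 binds closely related letters. The RefSeq promoter table (GRCm38.p6, 250 bases before to 50 after a gene start) held 15 windows for 9 of the 10 members. This motif, which reads the same on both strands, was present in 6 of the 15 windows, belonging to 4 of the 9 genes, against 8.3% of all 32851 windows and 9.55% of 27025 genes. The 4 genes were Igfals, Cish, Socs3 and Bcl6. The stretches are shown 5′ to 3′ on the gene's strand because these genes are known targets of STAT proteins, and capitals mark the motif.
Igfals, chr17:24877598-24877626, plus strand: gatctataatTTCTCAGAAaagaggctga
Igfals, chr17:24878163-24878191, plus strand: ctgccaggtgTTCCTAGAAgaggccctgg
Cish, chr9:107296654-107296683, plus strand: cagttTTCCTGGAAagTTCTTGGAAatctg
Socs3, chr11:117969502-117969530, minus strand: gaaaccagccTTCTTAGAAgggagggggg
Bcl6, chr16:23988952-23988980, minus strand: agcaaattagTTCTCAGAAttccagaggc
Bcl6, chr16:23981433-23981461, minus strand: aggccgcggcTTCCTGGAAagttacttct
Bcl6, chr16:23981387-23981415, minus strand: ggcaggagtgTTCTGTGAAatccttagag
Bcl6, chr16:23981353-23981381, minus strand: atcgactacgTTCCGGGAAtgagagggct

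In Cish the 2 matches lie side by side at the annotated gene start. In Socs3 the match begins 154 bases before the start, in Igfals 236 and 58 bases before 2 different starts, in Bcl6 118 bases before the outer start and 168, 122 and 88 bases before the inner one. The windows of Ghr, Igf1, Lepr, Onecut1 and Stat5b did not hold these letters. The letters ATCAAT, a core bound by ONECUT1, searched on both strands, were in 0 of the 15 windows against 7.54% of all, and TGTTTAC, bound by FOXO and FOXA proteins, was in 1 (Igfals) against 3.65%. A match describes the sequence only.

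The feedback inhibitors varied widely between mice of 1 group, and only Cish after the further fast was called among their responses. Cish, whose product docks on activated receptors and blocks STAT5, ran from 1.84 to 3.11 (median 2.34) in fed and from 1.81 to 3.27 (median 2.17) in fasted mice with 0 earlier fasts. In mice with 2 earlier fasts it ran from 1.95 to 4.61 (median 4.05) fed and from 1.97 to 2.87 (median 2.40) fasted. In that fed group, mice 2, 4, 5, 6 and 8 (3.65 to 4.61) lay above every other mouse of the study, and mice 1, 3 and 7 did not. Cish fell after the further fast (log2 change -1.21, SE 0.33, adjusted p = 0.0123, limma), and had a change of -0.10 after the first (95% interval -0.76 to 0.56, adjusted p = 0.92, limma). The difference between the 2 responses was -1.11 (95% interval -2.06 to -0.17) and was not called over all genes (adjusted p = 0.999, limma). The fasted mean of 2.39 lay near the array medians over all genes (2.25 to 2.36), and whether it was above background was not measured, so the size of the fall may be understated. Both means with 0 earlier fasts (2.46 fed and 2.36 fasted) lay there too, so a fall after the first fast may not have been visible. With the mean of its probe sets in place of the brighter one, the fall after the further fast was 0.75, which remained called.

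Socs2 encodes the inhibitor that tags the growth hormone receptor for degradation, and it is among the classical pulse-responsive genes. It ran from 2.59 to 6.22 (median 5.30) in fed and from 1.82 to 7.18 (median 4.61) in fasted mice with 0 earlier fasts, and from 2.42 to 5.27 (median 3.65) in fed and 2.29 to 7.04 (median 4.71) in fasted mice with 2. The extremes of all 31 mice, 1.82 and 7.18, were both in fasted mice with 0 earlier fasts, mouse 1 and mouse 5. The log2 changes after fasting were -0.38 (95% interval -1.64 to 0.89, adjusted p = 0.819, limma) and 1.13 (95% interval -0.18 to 2.43, adjusted p = 0.332, limma), and neither was called. Without the 2 arrays that stood apart, which held the highest value of each fasted group, they were -0.76 (adjusted p = 0.52, limma) and 0.76 (adjusted p = 0.535, limma). The intervals over all arrays allow changes of over a doubling in at least one direction.

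Socs3 restrains cytokine, leptin and growth hormone receptors alike. It ran from 2.55 to 3.33 (median 2.79) in fed and 2.73 to 4.68 (median 3.22) in fasted mice with 0 earlier fasts, and from 2.64 to 5.28 (median 3.50) in fed and 2.49 to 3.95 (median 3.25) in fasted mice with 2. The highest values belonged to fed mice 8, 2 and 5 with 2 earlier fasts (5.28, 4.76 and 4.29) and to fasted mouse 5 with 0 earlier fasts (4.68). Those 3 fed mice were also among the 5 with high Cish. The log2 changes after fasting were 0.56 (adjusted p = 0.294, limma) and -0.52 (adjusted p = 0.37, limma).

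The repressor gene Bcl6 and the hepatocyte factor gene Onecut1 also varied widely within groups. BCL6 occupies many STAT5 sites and represses the genes there. Bcl6 ran from 5.49 to 7.75 (median 7.17) in fed and 4.65 to 7.14 (median 6.69) in fasted mice with 0 earlier fasts, and from 5.24 to 7.60 (median 6.36) in fed and 4.89 to 6.84 (median 6.63) in fasted mice with 2. The log2 changes were -0.69 (95% interval -1.44 to 0.06, adjusted p = 0.281, limma) and -0.36 (95% interval -1.13 to 0.42, adjusted p = 0.679, limma).

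Onecut1 encodes HNF6, a liver transcription factor that growth hormone induces. It ran from 3.96 to 7.98 (median 6.42) in fed and 3.80 to 6.10 (median 4.79) in fasted mice with 0 earlier fasts. With 2 earlier fasts it ran from 3.50 to 7.54 (median 6.98) fed and from 4.32 to 5.81 (median 5.09) fasted. In both histories 6 of the 8 fed mice were above every fasted mouse, while fed mouse 2 with 0 earlier fasts (3.96) lay near the lowest fasted mouse and fed mouse 3 with 2 (3.50) below it. The fall was 2.94-fold after the first fast (log2 change -1.56, SE 0.49, adjusted p = 0.0282, limma). It was 2.31-fold, without a call, after the further fast (log2 change -1.21, SE 0.50, adjusted p = 0.133, limma). The first call was lost without fed mouse 1, 4 or 8 or fasted mouse 2, 3 or 6 with 0 earlier fasts (adjusted p 0.0538 to 0.0755). Without fed mouse 3 with 2 earlier fasts the fall after the further fast was 1.62 and was called (adjusted p = 0.0115, limma).

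The earlier fasts themselves left no called difference in any member. Between histories, 0 of 10 members passed limma's threshold in fed mice, 0 in fasted mice and 0 in the interaction of history with the final state, where 0% of all genes passed in each. Groups did not overlap for 0 of 10 members between histories, against 0.00902% of all genes in fed and 0.0361% in fasted mice. At an unadjusted p under 0.05 there were 2 members (Cish and Socs3) in fed mice, 0 in fasted mice and the same 2 in the interaction, against 1245, 996 and 1023 of all 22180 genes. In fed mice Cish was 1.14 higher (SE 0.32, 95% interval 0.48 to 1.80, adjusted p = 0.731, limma) and Socs3 0.83 higher (SE 0.30, 95% interval 0.21 to 1.45, adjusted p = 0.856, limma) after 2 earlier fasts. For Socs2 the difference was -1.12 (95% interval -2.39 to 0.14, adjusted p = 0.9, limma). With the mean of their probe sets in place of the brighter one, the differences were smaller. They were 0.67 for Cish, 0.45 for Socs3 and -0.55 for Socs2, again without a call. The second probe sets differed little between groups, with means of 1.91 to 2.21 for Cish, 1.70 to 1.98 for Socs3 and 2.74 to 2.81 for Socs2. The larger differences were thus seen in the brighter probe set alone. For Lepr the history difference was 0.08 in fed mice (95% interval -0.73 to 0.90) and for Igf1 0.02 (95% interval -0.14 to 0.18). In the order of the 4 group means, Ghr and Lepr each had 1 called step, from fed to fasted (2.11 for Lepr, adjusted p = 0.000212, limma). For the other 8 genes no step between neighbouring means passed the test.

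For 6 of the 10 genes the spread between mice of a group was wide for their signal. The SD within groups, pooled over the 4 groups, was 1.36 for Socs2, 1.06 for Onecut1, 0.88 for Lepr, 0.80 for Bcl6, 0.70 for Cish and 0.66 for Socs3. Each was larger than that of at least 99.29% of the genes whose mean signal lay within 0.5 log2 of its own, 1686 to 2133 genes, where the median SD was 0.17 to 0.28. Without the 2 arrays that stood apart the SD of Lepr was 0.53, larger than that of 98.31% of such genes, and the SD of Socs3 was 0.61 (98.85%). The other 4 remained above at least 99.66%. Igf1, Igfals, Stat5b and Ghr were nearer to genes of like signal, with SDs of 0.15, 0.20, 0.21 and 0.23 that exceeded 55.82, 74.5, 76.38 and 85% of them. Onecut1 and Cish varied more among fed mice (pooled SD 1.33 and 0.87) than among fasted mice (0.68 and 0.46), and Lepr the other way (0.50 and 1.15). For Cish this held only with 2 earlier fasts (SD 1.13 fed and 0.27 fasted), and not with 0 (0.50 fed and 0.57 fasted). Without the 2 arrays that stood apart the fasted SD of Lepr was 0.57, near that of fed mice. These differences in spread were not tested.

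**Figure D3:**
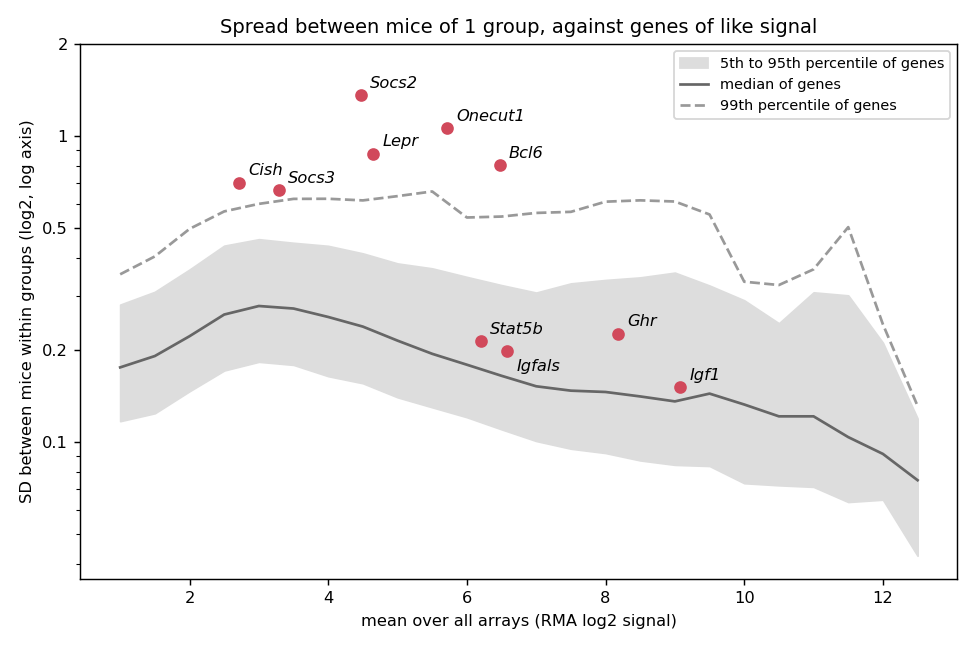
SD between mice within groups (vertical axis, log2, drawn on a log scale) against mean signal for the 10 genes (points), with the median, the 5th to 95th and the 99th percentile of all genes of like signal. Socs2, Onecut1, Lepr, Bcl6, Cish and Socs3 lie above the 99th percentile line with all 31 arrays, Lepr and Socs3 only with the 2 arrays that stood apart, and Igf1, Stat5b, Igfals and Ghr lie inside the band.

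Whether the members varied together from mouse to mouse was asked for 10 pairs of them. The pairs were drawn from members chosen with earlier results of these data known. Deviations from the group means over 31 mice were related, with 2-sided permutations within groups (100000 resamples) and adjustment over the 10 pairs. The permutations took the mice of a group as interchangeable and did not allow for any order in their replicate numbers. Mice with low Ghr had high Lepr (Pearson's r = -0.82, permutation p = 2e-05, adjusted p = 0.0002; Spearman's rho = -0.80, permutation p = 1e-05, the smallest these resamples can give, adjusted p = 0.0001). The relation was -0.72 without the 2 mice farthest from the median of Ghr and -0.66 without the 2 arrays that stood apart. It was -0.89 among the 15 fasted mice (adjusted permutation p = 0.0001) and -0.41 among the 16 fed mice, where it was not called (adjusted permutation p = 0.344). In fasted mice with 2 earlier fasts, mice 1 to 3 had Lepr of 4.76 to 5.18 and Ghr of 7.85 to 8.05. Mice 4 to 7 of that group had 6.05 to 8.37 and 7.43 to 7.70. In fasted mice with 0 earlier fasts, mice 1 to 4 and 5 to 8 overlapped in both genes.

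Mice with low Bcl6 had high Cish (r = -0.58, permutation p = 0.00032, adjusted p = 0.0016; rho = -0.60, permutation p = 0.00069, adjusted p = 0.00345). That relation was -0.53 without the 2 mice farthest from the median of Bcl6 and -0.59 without the 2 arrays that stood apart. It was -0.59 in fed mice (adjusted permutation p = 0.157) and -0.70 in fasted mice (adjusted permutation p = 0.0206). Fasted Bcl6 was 6.63 to 7.14 in mice 1 to 4 of both histories and 4.65 to 6.70 in the higher-numbered mice. Fasted Cish with 0 earlier fasts was 1.81 to 1.95 in mice 1 to 4 and 2.39 to 3.27 in mice 5 to 8. With 2 earlier fasts the fasted Cish values overlapped. Fed Bcl6 with 0 earlier fasts ran the other way (5.49 to 7.27 in mice 1 to 4, 7.13 to 7.75 in the rest). The part of this numbering in the relation was not tested. Bcl6 and Socs2 had r = -0.15 and rho = -0.15 (permutation p = 0.469 and 0.446, adjusted p = 0.521 and 0.558).

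Socs2 and Igf1 deviated in the same direction (r = 0.47, permutation p = 0.00991, adjusted p = 0.033; rho = 0.46, permutation p = 0.0118, adjusted p = 0.0303). This was 0.45 without the 2 mice farthest in Socs2 but 0.35 and uncalled without the 2 arrays that stood apart (adjusted permutation p = 0.174), 0.15 in fed mice and 0.69 in fasted mice. Onecut1 and Socs2 had r = 0.38 (permutation p = 0.0242, adjusted p = 0.0494) and rho = 0.46 (permutation p = 0.0121, adjusted p = 0.0303), with r = 0.32 and no call (adjusted permutation p = 0.245) without the 2 mice farthest in Onecut1, and r = 0.33 and no call (adjusted permutation p = 0.181) without the 2 arrays that stood apart. Lepr and Socs3 had r = 0.37 (permutation p = 0.0247, adjusted p = 0.0494) but rho = 0.11 (permutation p = 0.548, adjusted p = 0.608). Without the 2 arrays that stood apart, which are also the 2 farthest in Lepr, r was 0.01, so that relation rests on these 2 mice.

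The other 4 pairs were not called. Socs2 and Cish, both feedback inhibitors, had r = 0.20 and rho = 0.29 (permutation p = 0.224 and 0.109, adjusted p = 0.28 and 0.182). Igf1 and Igfals had r = 0.36 and rho = 0.34 (permutation p = 0.067 and 0.0831, adjusted p = 0.112 and 0.166). Ghr had r = -0.32 and rho = -0.25 with Igf1 (permutation p = 0.129 and 0.217, adjusted p = 0.184 and 0.31), and r = 0.09 and rho = 0.09 with Stat5b (permutation p = 0.625 and 0.64, adjusted p = 0.625 and 0.64).

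**Figure D4:**
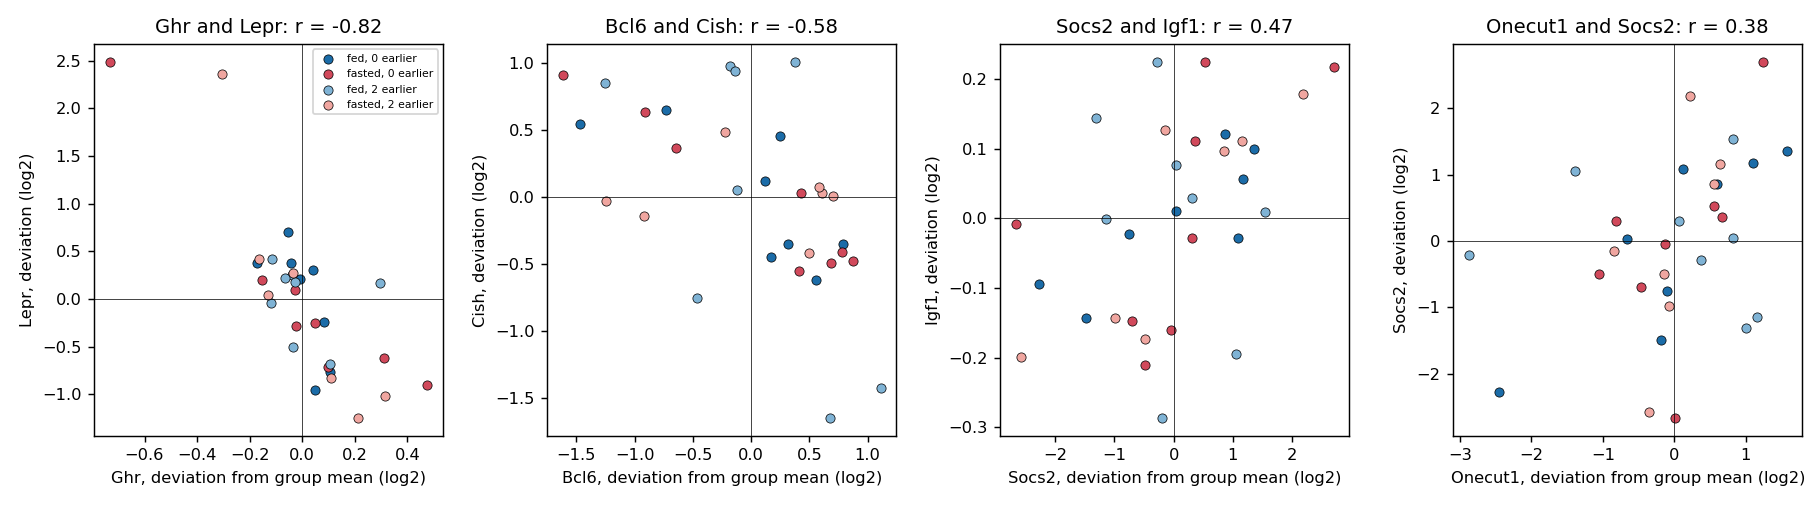
Deviation from the group mean (log2) of 1 gene against another in each of 31 mice, coloured by group, for 4 of the 10 pairs. Ghr and Lepr (r = -0.82) and Bcl6 and Cish (r = -0.58) run downward, Socs2 and Igf1 (r = 0.47) and Onecut1 and Socs2 (r = 0.38) upward, and the 2 highest Lepr deviations are in fasted mice with low Ghr.

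Over all named genes of at least medium signal, the patterns most like each member were found by Pearson's r of the same deviations, over 31 mice that share their arrays, as a description. For Ghr these were Nadk2 (0.91), Aox3 (0.87) and Hpgd (0.87), with Ctsz lowest (-0.82). For Lepr they were Fh1 (0.79, but rho = 0.51), Acsl4 (0.74, rho = 0.43) and Tmem241 (0.74, rho = 0.70), with Akr1c20 lowest (-0.87, rho = -0.72). For Cish they were Phlda1 (0.77), Foxq1 (0.73) and Igf1 itself (0.70), with Nod1 lowest. For Igf1 the list held Adamtsl2 (0.71), Wsb1 (0.67) and Onecut1 (0.67), with Nrbp1 lowest (-0.66). For Onecut1 it held Alas1 (0.79), B4galt1 (0.77) and Wdr45b (0.74), and for Socs2 Hacl1 (0.72), Ptpn9 (0.72) and Zfp292 (0.70). Stat5b had Ric8b (0.80), Mtmr3 (0.75) and Atat1 (0.72), and Bcl6 had Nup205 (0.69), Siah2 (0.66) and Tmem39a (0.64). Socs3 had Gadd45g (0.68), Mir5099 (0.68) and Rell1 (0.65), and Igfals had Nr3c2 (0.67), Dsg2 (0.64) and Arsb (0.63). None of these patterns was sought again without the arrays that stood apart.

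Among other genes of the pathway, read against the 12.5% and 11.6% of all genes called in the 2 responses, no list was tested as a whole. Of 17 measured genes of receptors and JAK-STAT signalling, 2 were higher and 4 lower after the first fast and 4 higher and 3 lower after the further one, or 35.3% and 41.2% called. Their median log2 change was 0.00 and -0.09, beside 0.00 for all genes. Lifr, the receptor gene for leukaemia inhibitory factor and a relative of Ghr in the cytokine receptor family, fell by 1.18 (SE 0.13, adjusted p = 1.16e-08, limma) and by 1.01 (SE 0.13, adjusted p = 6.44e-07, limma). Jak2, the kinase bound to both receptors, fell by 0.29 (adjusted p = 0.013, limma) and 0.36 (adjusted p = 0.00246, limma). Il6ra, the interleukin-6 receptor gene, rose by 0.81 and 0.63, and Irs2, an adaptor of insulin signalling, by 1.19 and 1.29. Stat3, which carries the leptin signal, had changes of 0.07 and -0.01 without a call.

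Of 17 negative regulators of JAK-STAT signalling besides the members, 2 were higher and 1 lower after the first fast and 2 higher and 0 lower after the further one, with medians of 0.06 and 0.08. At 17.6% and 11.8% called, this list was near the share of all genes. Ptpn6, the phosphatase SHP-1, rose by 0.46 (adjusted p = 1.02e-05, limma) and 0.39 (adjusted p = 0.000235, limma), and Socs4 fell by 0.32 after the first fast. Ptpn1, the phosphatase that acts on the leptin receptor kinase, had changes of 0.20 and 0.11 without a call.

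Of 17 measured genes of the IGF system, 5 were higher and 0 lower after the first fast and 3 higher and 0 lower after the further one (29.4% and 17.6% called), with medians of 0.08 and -0.08. The risers in both were binding protein genes: Igfbp1, which sequesters IGF-1 in fasting, by 2.97 and 2.93, Igfbp2 by 0.83 and 0.65, and Igfbp4 by 0.43 and 0.31. Igfbp3, the partner of the Igfals product in the ternary complex, had changes of 0.12 and -0.16 (adjusted p = 0.712 and 0.589, limma).

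Among 26 measured male-biased genes that pulsatile growth hormone keeps up, 18 were lower and 0 higher after the first fast, and 14 lower and 1 higher after the further one (69.2% and 57.7% called). Their median log2 change was -0.67 and -0.53, and the count was 16 to 19 and 13 to 16 over all other settings. Hsd3b5, a steroid dehydrogenase gene of male liver, had the largest falls of this list, by 5.22 and 4.78. Keg1, a glycine acyltransferase-like gene, fell by 2.32 and 2.22, Nudt7, a peroxisomal hydrolase gene, by 2.17 and 2.25, and Selenbp2 by 2.52 and 2.63. Of 24 measured female-biased genes, 10 and 8 were higher and 0 and 0 lower (41.7% and 33.3% called), with medians of 0.08 and 0.19. Cyp4a14, a fatty acid hydroxylase gene, rose by 6.50 and 5.50, Acot3, a peroxisomal thioesterase gene, by 2.93 and 3.14, and PPAR-alpha is known to induce both. Cyp17a1, a steroid hydroxylase gene, rose by 3.71 and 3.41, and Fmo2, a flavin monooxygenase gene, by 1.72 and 1.42. Such lists had been seen to move in these data before, and their counts are not independent evidence on the axis.

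Of 16 measured transcription factor genes that act with STAT5B, ONECUT1 or BCL6, 3 were higher and 1 lower after the first fast and 3 higher and 2 lower after the further one (25% and 31.2% called), with medians of -0.06 and 0.02. Trim24 rose by 1.17 (adjusted p = 5.58e-09, limma) and 0.94 (adjusted p = 1.14e-06, limma), and Hnf4a, a master regulator of hepatocyte genes, by 0.36 and 0.30. Cux2, a factor of female liver, stayed dim (group means 1.84 to 2.06) and was not called. Of 14 regulators of fasting that meet the axis, 7 were higher and 3 lower after the first fast and 5 higher and 2 lower after the further one (71.4% and 50% called), with medians of 0.23 and 0.12. Fgf21, a fasting hormone known to restrain growth hormone signalling, rose by 2.04 and 2.56, and Nr3c1, the glucocorticoid receptor gene, fell by 0.34 and 0.42.

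**Figure D5:**
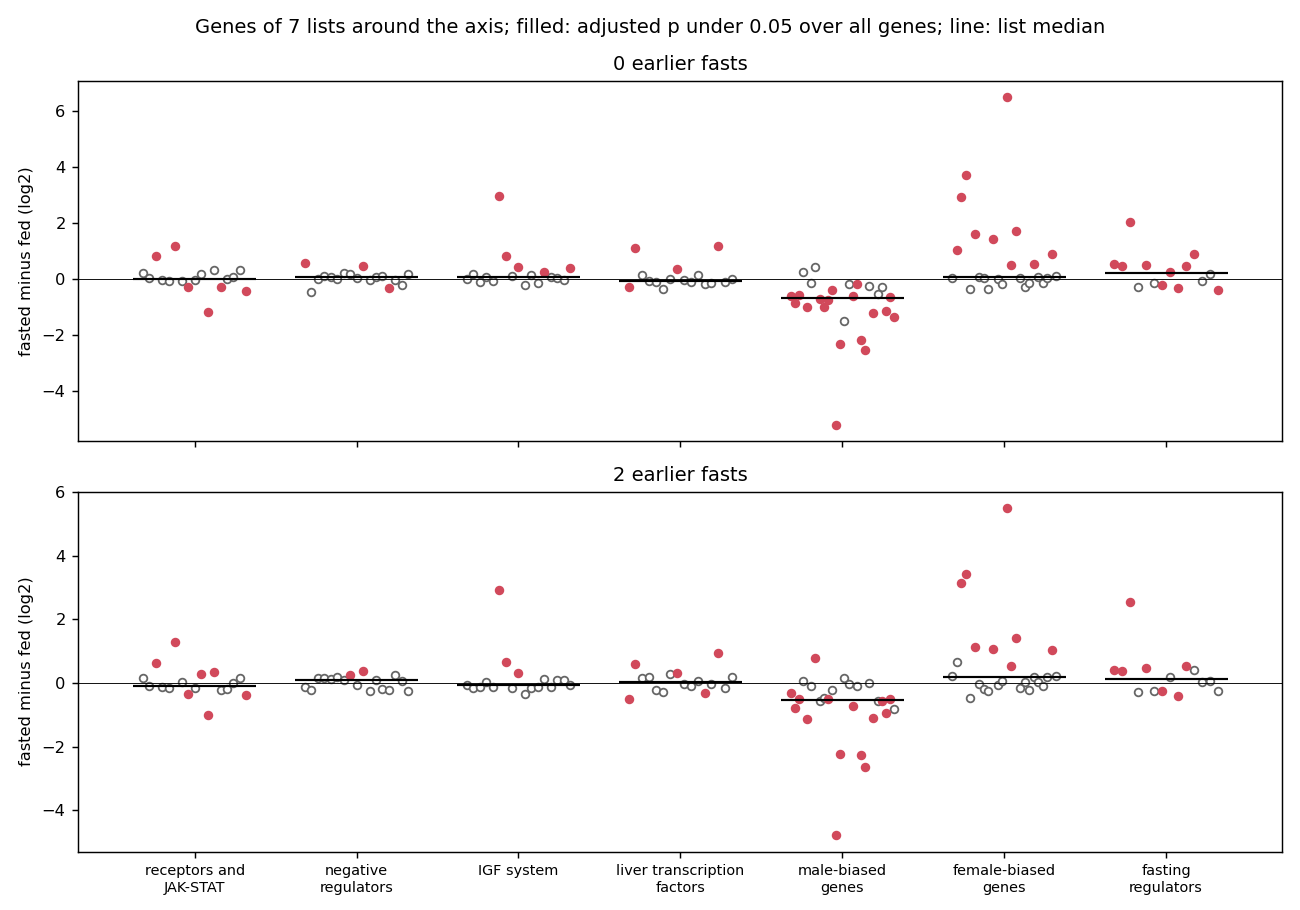
Log2 change, fasted minus fed (vertical axis), of each measured gene of 7 lists around the axis, with 0 (top) and 2 earlier fasts (bottom); filled points passed an adjusted p of 0.05 over all genes and lines mark list medians. Male-biased genes lie mostly below 0 (medians -0.67 and -0.53), and the other lists have medians near 0 with single genes far from it.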

How the data were processed

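Total RNA (100 ng per liver) was hybridized to Affymetrix whole-transcript arrays with 1 biotin label, per the labels' protocols. The deposited values are log2 signals that the authors made with RMA, per the submitters' processing notes; its version and any genome build are not given in the sources used here. Quantile normalization within RMA forces like distributions on all arrays, so only changes relative to the other genes are seen. Values ran from -0.01 to 13.1, with array medians over genes of 2.25 to 2.36. Detection calls were not used here. Precision is limited by how many arrays a group has.

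Of 41345 probe sets, 23521 had 1 gene symbol, which gave 22180 genes, each by its probe set with the highest mean. One limma model (version 3.58.1, R 4.3.3) held all 4 groups, and its moderated tests were 2-sided. Relations were permuted in Python 3.11.15, and figures drawn with matplotlib 3.10.9. The fits were tested on simulated data. P-values measure the spread between mice, since each array is 1 mouse, and the labels give no batch. For Stat5b, Bcl6, Cish and Lepr, low and high replicate numbers differed in some groups. The part of this in the spread was not tested.

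The members, the 7 pathway lists and 9 marker lists were chosen with earlier results of these data known. Named genes are all 10 members, up to 4 called genes of a list with the largest changes, and the genes with patterns most like a member (mean signal at or above the 60th percentile). Jak2, Stat3, Ptpn1, Igfbp3, Leprot and Cux2 were named for their role after their values were seen. Alternatives were other fits, normalizations, probe set and gene filters, the replicate number as a block, and each array left out. Leaving out both arrays that stood apart was added after seeing the data.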

Additional observations from a re-analysis of the deposited data

Results flagged for a closer look

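Dixon's test was run on the highest and the lowest mouse of each group for each member, 40 combinations, of which chance flags about 1 in 20. It singled out 2. Lepr in fasted mouse 5 with 0 earlier fasts was 8.17, while the next highest of that group was 5.89, and the same mouse had the lowest Ghr (6.91) and the highest Socs2 (7.18) and Socs3 (4.68) of its group. Igfals in fasted mouse 1 with 2 earlier fasts was 6.98, while the next highest was 6.54.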

How the results depend on the processing

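The members called numbered 4 after the first fast (3 or 4 over 11 other settings and 3 or 4 with each array left out) and 3 after the further fast (3 or 4, and 3 or 4), and 0 in each history comparison and the interaction under every setting run. Of 540 member values under other settings, 534 kept their call, 1 lost it (Onecut1 after the first fast with all probe sets tested, adjusted p = 0.0584) and 5 gained it (Stat5b after the further fast), and of 930 with 1 array left out, 921 kept it. None reversed among called values, and 3 and 37 uncalled values changed sign. Of the 10 relations 5 were called, but 3 without the 2 mice farthest from the median, 0 in fed mice alone, 3 in fasted mice alone, 2 with cyclic loess and 2 without the arrays that stood apart; the cause was not tested, though the state subsets hold fewer mice. The labels do not say what the replicate numbers stand for. Over all genes, deviations from the group means correlated at -0.06 to 0.12 (median 0.03) between same-numbered mice of different groups. Between differently numbered mice they correlated at -0.19 to 0.18 (median -0.003). These correlations do not address a difference between low and high numbers, which some members showed once their values were seen. With 0 earlier fasts, fed Stat5b was 6.37 to 6.58 in mice 1 to 4 and 5.99 to 6.38 in mice 5 to 8. With 2 earlier fasts it was 6.41 to 6.78 and 5.95 to 6.34. Fasted Stat5b with 0 earlier fasts overlapped (5.87 to 6.39 and 5.92 to 6.23). What the numbers mark was not tested and cannot be told from these values. With the replicate block the Stat5b change after the further fast was -0.33 (adjusted p = 0.0224), and 4 members were called there in place of 3. Dim signals, such as those of Cish and Socs3, limit how well small changes are seen. Counts in the small lists moved by over 1.5 times in places: the receptor and JAK-STAT genes called higher ran from 2 to 4 in both responses, the negative regulators called higher from 1 to 3, and the fasting regulators called lower from 1 to 4.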
